A study of Mus musculus with 4 samples.

Results

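The transcriptomes of the embryonic mouse tongue (T) at E14.5 (days of embryonic development) and of the lateral lingual swellings (LLS) at E11.5 were compared by 1 single-colour array each, 2 of the 4 arrays of the series. Both tissues came from ICR embryos, an outbred stock with no transgene or treatment, and each was 1 pool of tissue from 4 embryos dissected under a stereomicroscope. The tongue is labelled as its medial region, and so are the swellings, although their name is lateral. The other arrays held the medial mandibular arch at E9.5 (MMA, 12 embryos) and the lateral part of that arch at E11.5 (LMA, 4 embryos), whose levels are given where they add to a result. T and LLS differ in both stage and dissected structure, so the contribution of each cannot be told apart.

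The lateral lingual swellings are paired outgrowths on the floor of the mandibular arch that merge to form most of the oral tongue. Their mesenchyme comes from cranial neural crest, and it is entered by myoblasts that migrate from the occipital somites. In the days that follow, myoblasts fuse into fibres, connective tissue forms around them, motor and sensory nerves grow in, and the covering epithelium stratifies and forms taste papillae.

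A level below is the processed signal of a gene's brightest probe divided by the signal at the 75th percentile of all probes on the same array, which was 491 in T and 456 in LLS. A difference is the log2 level in T minus that in LLS, so that 1 is 2-fold. Signals were well above background for 58.9% of the spots in T and 59.3% in LLS. Genes above background by this measure in T, in LLS or in both entered the comparison. Where only 1 tissue reached that level, the difference is a bound, given with the words at least. Such a bound holds for the processing used here only: that of the muscle gene Cav3 was 9.40, and as small as 7.65 under other processing. Spot error was taken from 206 probes printed 10 times, with every spot well above background in both tissues. The differences of their single spots had a pooled SD of 0.054, which covers spot error only and leaves out dimmer probes. There were no replicate arrays, so no test was possible and no difference has a replicate check.

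The comparison covered 17472 genes, of which 2205 (12.6%) had a T level at least 2-fold that in LLS and 1050 (6.01%) had an LLS level at least 2-fold that in T. Of these, 669 and 184 were bounds. The larger changes were mostly upward, with 188 genes higher by 16-fold or more and 10 lower by that much. The median difference over all genes was -0.08, with percentile 5 at -1.09 and percentile 95 at 2.11. Cyclic loess normalization moved all differences up by a median of 0.18. The counts depended on how dim signals were handled: normexp background correction gave 1458 higher and 563 lower, and using all probes without filter or floor gave 3441 and 1989. A further probe existed for 1108 of the genes past 2-fold, and every such probe pointed the same way for 89.2% of them and also passed 2-fold for 54.7%. In pooled tissue, fewer cells of a type and less RNA per cell cannot be told apart, here and in all results that follow.

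**Figure D1:**
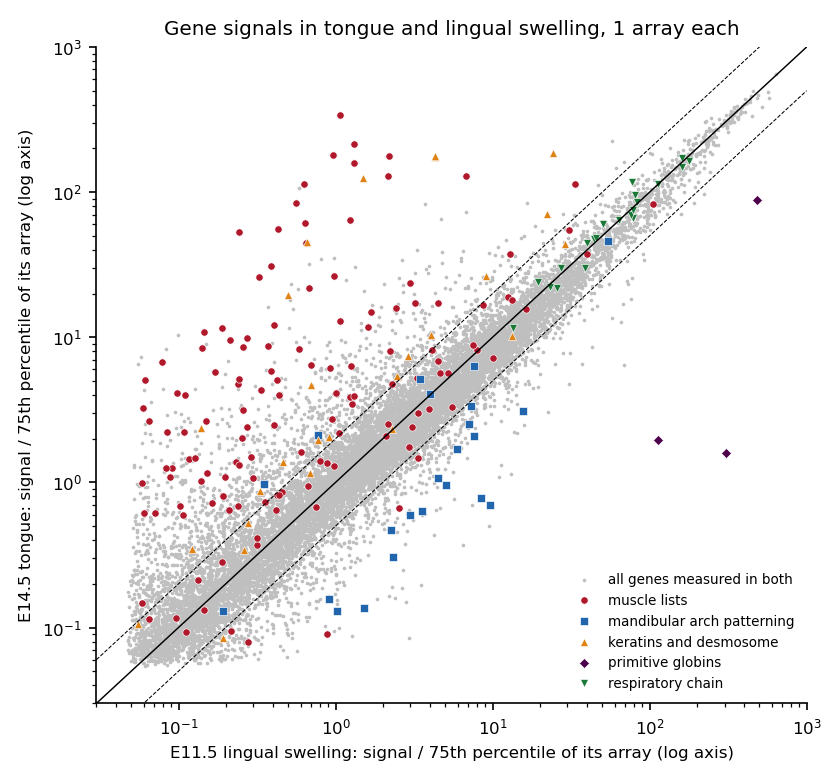
Level of each gene measured in both tissues on log axes, LLS on the horizontal axis and T on the vertical axis, with the solid line at equal levels and the dashed lines at 2-fold. Genes of the muscle lists lie mostly above the upper dashed line, most mandibular arch patterning genes below the lower one, the primitive globin genes far below it, and the respiratory chain genes along the solid line.

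Of the 9 groups of lists, the muscle lists had the largest median difference. Over all 10 muscle lists, 114 of 159 genes were higher in T, 5 were lower and the median difference was 2.71. The myogenic regulators themselves moved in both directions, with 7 of 20 higher, 4 lower and a median of 0.60. Myog, the transcription factor gene of terminal differentiation, had a level of 2.98 in LLS and 23.6 in T (7.93-fold higher). Myf6, a regulator of maturing fibres, was not well above background in LLS and reached 2.04 in T (at least 43.6-fold higher). Myod1, a determination factor gene, went from 0.948 to 2.75 (2.90-fold), and Pax7, which marks fetal muscle progenitors, from 0.233 to 1.38 (5.92-fold). Myf5, another determination factor gene, was not well above background in LLS and stood at 0.370 in T. Pax3, which marks embryonic and migrating muscle progenitors, had a level of 0.877 in LLS and 0.0903 in T (9.72-fold lower), so the members of this progenitor pair differed in opposite directions. Meox1, a homeobox gene of the somites, was 3.81-fold lower and Tcf21, known from arch muscle precursors, 3.49-fold lower (-0.94 on the log2 scale with normexp). Lbx1, a gene of migrating myoblasts, was at 0.976 and 1.29, a difference of 0.41.

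Genes of myoblast fusion and adhesion were higher in 5 of 10 and lower in 0 of 10. The muscle membrane fusogen genes led: Mymk was 20.3-fold higher and Mymx 8.89-fold higher. Myof, a membrane repair gene of the ferlin family, was 2.05 higher on the log2 scale, and the muscle cadherin gene Cdh15 1.85 higher. Adhesion and signalling members that many tissues express stayed within 2-fold, such as Jam3 (0.24) and Dock1 (-0.48).

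Contractile genes of fetal, fast and slow fibres were higher. Among myosin heavy chains, 6 of 8 compared were higher and 0 lower. The embryonic gene Myh3 went from a level of 1.31 to 159 (122-fold), the perinatal gene Myh8 from 0.640 to 61.2 (95.8-fold), and the slow gene Myh7 from 0.259 to 8.58 (33.1-fold). The adult fast genes were far less changed: Myh1 stood at 0.0969 and 0.116, Myh4 was at least 3.95-fold higher from below background (0.72 on the log2 scale with normexp), and Myh2 was not well above background in either tissue. For Myh4 and Myh7 another probe differed by -0.09 and 0.78. Another probe of Myh3 differed by 4.16, and others of Myh8 by 2.05 to 3.99. These genes share sequence, and binding of a probe by a related transcript was not tested. Light chains and binding proteins were higher in 10 of 11, with a median of 5.73, including Myl4 (320-fold), the embryonic and atrial light chain, Mylpf (186-fold) and Myl1 (81.9-fold), the fast regulatory and alkali light chains. The atrial light chain gene Myl7 was the member within 2-fold (0.57). Another probe of Mylpf differed by -0.20, and others of Myl1 by 3.63 to 7.02.

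Thin filament genes were higher in 14 of 18 and lower in 1. Both fast and slow skeletal troponin genes were higher: Tnnc2 was 164-fold higher, Tnnt3 151-fold, Tnni1 5.68 and Tnnc1 5.94 on the log2 scale. The cardiac troponin I gene Tnni3 was the lower member, from 0.217 to 0.0953, a difference of -1.19 that was -0.67 with normexp. The skeletal actin gene Acta1 was at 0.433 in LLS and 55.3 in T (128-fold), whereas the cardiac actin gene Actc1, which early skeletal muscle also uses, was already at 6.81 and reached 130, a difference of 4.25. Tpm1 was 1.53 higher by its brightest probe but -0.68 by the median over its probes. Of Z-disc, M-band and sarcomere assembly genes, 27 of 31 were higher, 0 were lower and the median was 5.02. Myom2, an M-band gene, was at least 512-fold higher and Csrp3, a Z-disc protein gene, at least 475-fold, both from below background in LLS. Another probe of Myom2 differed by 2.70. The giant scaffold genes Ttn (32.4-fold) and Neb (20.2-fold) were detected at both stages, and other probes of Ttn differed by 1.38 to 5.23. The brightest probes of Synpo2l (-0.07) and Smyd1 (0.22) were within 2-fold, while another probe of each was 2.98 and 3.17 higher.

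**Figure D2:**
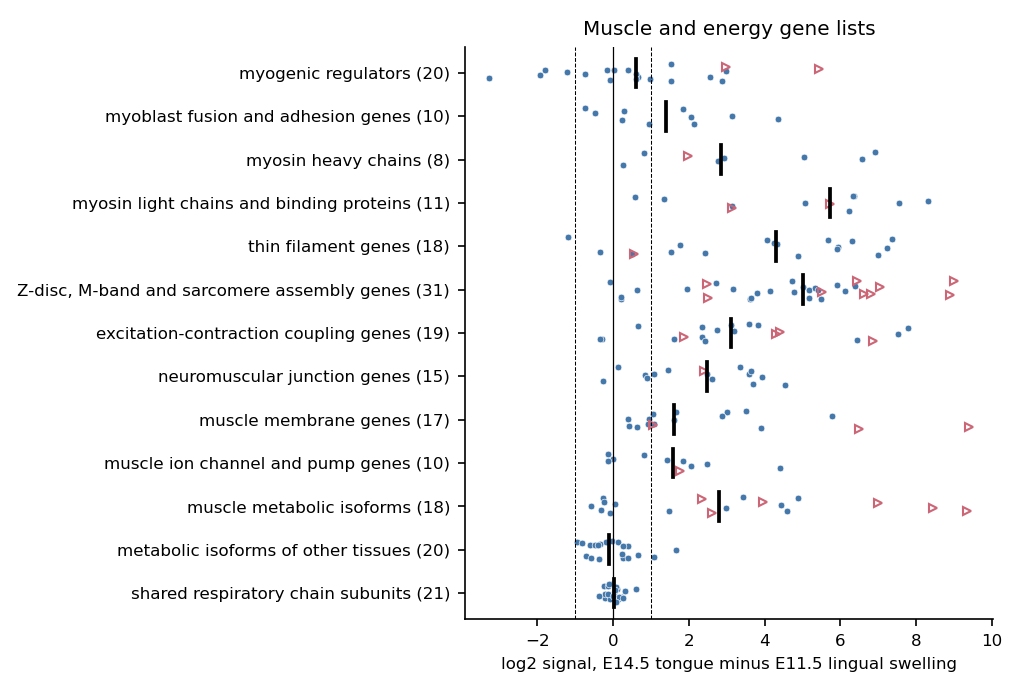
Difference of each gene in the muscle and energy lists (horizontal axis, log2 level in T minus LLS), 1 row per list with the number compared in brackets. Filled points are genes measured in both tissues, open triangles are bounds pointing in their direction, black bars are medians and dashed lines mark 2-fold. The contractile lists centre between 2.85 and 5.73 and the shared respiratory chain subunits at 0.03.

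Because the contractile genes were higher together, the sequences just upstream of their starts were searched. The E-box CAGCTG, which reads the same on both strands and is a form bound by MyoD-family factors, was found in 31 of the 82 windows of 250 bases before the start that RefSeq lists for 68 of the 99 genes in the light chain, thin filament, Z-disc, coupling and junction lists. That is 37.8%, against 13.0% of all 32851 such windows. In the light chain list 7 of 12 windows held it (58.3%), and in the myogenic regulator list 0 of 16. MEF2 sites were in 7.32% of the contractile windows and 0.508% of all windows, and CArG boxes in 8.54% and 1.47%. Over all genes compared, CAGCTG was in 17.9% of the windows of the genes higher in T, 12.3% of those lower and 12.0% of those within 2-fold. A match describes these letters alone. To show how the E-box sits in such a window, 3 windows are printed from RefSeq (GRCm38.p6), 5′ to 3′ on the gene's strand, with the E-box in capitals. Mylpf lies at chr7:127211358-127211607 (plus strand), Cacna1s, the calcium channel subunit that senses the muscle action potential, at chr1:136052561-136052810 (plus strand), and Chrna1, an acetylcholine receptor subunit, at chr2:73580339-73580588 (minus strand).
Mylpf: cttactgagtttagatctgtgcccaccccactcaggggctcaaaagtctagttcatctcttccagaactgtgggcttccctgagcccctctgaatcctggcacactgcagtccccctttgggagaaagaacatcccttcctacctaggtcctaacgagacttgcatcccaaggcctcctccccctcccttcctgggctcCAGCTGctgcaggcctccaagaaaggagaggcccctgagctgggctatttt
Cacna1s: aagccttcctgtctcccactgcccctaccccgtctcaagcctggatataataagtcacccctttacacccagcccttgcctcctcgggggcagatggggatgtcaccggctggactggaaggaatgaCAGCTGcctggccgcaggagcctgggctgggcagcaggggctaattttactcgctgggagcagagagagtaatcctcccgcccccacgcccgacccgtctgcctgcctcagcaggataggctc
Chrna1: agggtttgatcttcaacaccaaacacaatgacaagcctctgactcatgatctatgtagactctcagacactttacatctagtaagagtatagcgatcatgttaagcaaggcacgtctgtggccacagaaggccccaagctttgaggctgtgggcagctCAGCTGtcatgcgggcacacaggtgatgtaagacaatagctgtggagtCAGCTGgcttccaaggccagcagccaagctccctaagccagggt
The first base of the E-box lay 51 bases before the start in Mylpf and 123 bases before it in Cacna1s, and Chrna1 had 2 matches, 44 and 92 bases before it.

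Excitation-contraction coupling, the release of stored calcium by a membrane signal, was represented by 19 genes, of which 16 were higher and 0 lower (median 3.12). The calcium store protein gene Casq2 went from 0.241 to 52.9 (219-fold), the pump regulator gene Sln from 0.628 to 114 (182-fold) and Cacna1s from 0.0789 to 6.79 (86.1-fold). Another probe of Casq2 differed by 3.48. Trdn, which anchors the release channel, was at least 116-fold higher. The widely expressed pump gene Atp2a2 was within 2-fold by its brightest probe (-0.36) but differed by 0.46 and 1.19 by its others. Its muscle relative Atp2a1 was 2.43 higher on the log2 scale. Ryr1, the release channel gene, was 2.35 higher by its brightest probe but -0.34 by the median over its probes. The cardiac pump inhibitor gene Pln was not well above background in either tissue.

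Neuromuscular junction genes were higher in 11 of 15 and lower in 0. The receptor subunits of the fetal acetylcholine receptor were all higher: Chrna1 by 23.3-fold (0.370 to 8.64), Chrnd by 12.9-fold, Chrng by 12.1-fold and Chrnb1 by 10.2-fold. The adult subunit gene Chrne, which replaces the gamma subunit after birth, was at 0.112 in LLS and 0.0935 in T. Clustering and signalling genes were higher too, with Dok7 at 15.2-fold, Rapsn at 2.62 and Musk at 2.47 on the log2 scale. Other probes of Dok7 differed by 0.74 and 3.70. The nerve-derived organizer gene Agrn, which other tissues also make, differed by 0.84.

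Among membrane genes, 12 of 17 were higher and 0 lower. Cav3, the muscle caveolin gene, was at least 675-fold higher, the laminin-receptor integrin gene Itga7 at least 90.4-fold and the dystrophin gene Dmd 3.52 on the log2 scale. Another probe of Itga7 differed by 2.12, and others of Dmd by 0.89 to 4.16. The widely expressed sarcoglycan gene Sgce was within 2-fold (0.43). Another sarcoglycan gene, Sgcd, differed by 0.39 by its brightest probe but by 1.44 and 1.79 by its others. Of muscle channel and pump genes, 6 of 10 were higher: Scn3b led (21.1-fold), while the adult muscle sodium channel gene Scn4a differed by -0.14 and the adult chloride channel gene Clcn1 was not well above background in either tissue.

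The energy genes separated by isoform. Of 15 enzyme, carrier or subunit pairs with both forms compared, the muscle form was higher in 10 and its counterpart from other tissues in 1, with medians of 2.99 and -0.01. The cytochrome oxidase subunit gene Cox6a2 was at least 645-fold higher (30.2 in T) beside Cox6a1 (219 and 238, difference 0.12), and Cox8b at least 352-fold beside Cox8a (0.26). Muscle creatine kinase, Ckm, was at least 127-fold higher and the brain form Ckb differed by 0.40. In glycolysis, Pgam2 was 21.5-fold higher and Eno3 7.93-fold, whereas Pgam1 (-0.83) and Eno1 (-0.71) were below 0 within 2-fold. Glycogen phosphorylase showed the same arrangement, with Pygm 24.0-fold higher and Pygb at -0.18. Not all muscle forms followed: Pfkm (-0.07), Phka1 (-0.27), Slc25a4 (0.06), the insulin-responsive glucose transporter gene Slc2a4 (-0.32) and Hk2 (-0.59) were within 2-fold. The 1 counterpart that was higher was the mitochondrial creatine kinase gene Ckmt1 (1.67). In the full list of isoforms of other tissues, 2 of 20 were higher (10%, near the 12.6% over all genes). These were Ckmt1 and the unpaired Pfkp (1.07, and -0.10 by the median over its probes). Respiratory chain subunits without a tissue form were higher in 0 of 21 and lower in 0 of 21, with differences from -0.37 to 0.61. Myoglobin, Mb, was at least 6.10-fold higher and the fatty acid carrier gene Fabp3 29.3-fold.

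**Figure D3:**
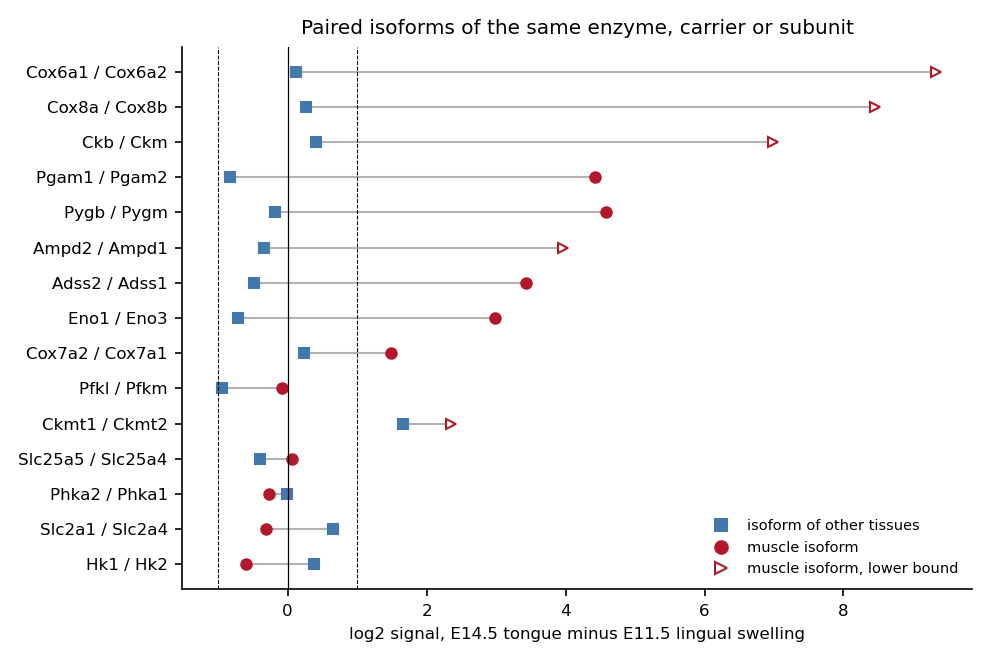
Differences (horizontal axis, log2 level in T minus LLS) of 15 isoform pairs, blue squares for the form of other tissues and red symbols for the muscle form, open where it is a bound. The gap is widest for Cox6a1 and Cox6a2, and 3 pairs at the bottom have the muscle form below its counterpart.

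The medians of the muscle lists depended on background correction and on the choice of probe. With the median over a gene's probes they were 3.81 for light chains, 3.63 for thin filament genes and 4.18 for Z-disc genes. With normexp background correction the medians were 4.35 for light chains, 3.79 for Z-disc genes, 2.44 for coupling, 1.88 for heavy chains, 1.73 for the junction and 0.96 for channels. For the muscle metabolic isoforms the median was 1.77 with normexp and 0.77 with only genes well above background in both tissues, against 2.80 as reported.

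In the tendon and muscle connective tissue list 8 of 18 were higher and 1 lower (median 0.52). The matrix genes led, with the microfibril gene Mfap5 at 0.166 in LLS and 5.86 in T (35.3-fold), and Thbs4, a thrombospondin of tendon and muscle attachments, at 1.34 and 30.3 (22.6-fold). Elastin, Eln, was 2.77 higher on the log2 scale. The regulators did not follow: the tendon transcription factor genes Scx (-0.10) and Mkx (-0.04) were within 2-fold, and Osr1, a factor of irregular connective tissue, was 8.54-fold lower. Small leucine-rich proteoglycans, which bind collagen fibrils, were higher in 9 of 12 and lower in 0, with a median of 2.45 that normexp reduced to 1.51. Ogn went from 0.806 to 34.6 (42.9-fold), decorin, Dcn, from 4.68 to 65.5, and Aspn was at least 60.4-fold higher.

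Collagen genes were higher in 13 of 29 and lower in 5. The 3 collagen VI chains of the muscle basement zone were higher together, Col6a1 by 7.82-fold, Col6a2 by 7.66-fold and Col6a3 by 4.66-fold, although by the median over its probes Col6a2 differed by 0.96. The largest increase was in Col7a1, the anchoring fibril collagen beneath stratified epithelium, from 0.982 to 35.2 (35.8-fold), beside the hemidesmosome collagen gene Col17a1 (23.4-fold). Of the collagen I chains, Col1a1 was 5.33-fold higher. Col1a2 differed by 0.50 by its brightest probe and by -0.74 and -0.69 by its others. Of the 6 cartilage collagens, 3 were lower: Col9a1 went from 9.49 to 0.501 (18.9-fold), Col2a1 from 5.18 to 1.47 (3.53-fold) and Col9a2 from 3.04 to 1.52, at the 2-fold threshold (as small as -0.81 on the log2 scale over the alternatives). Col9a3 (-0.63), Col11a1 (-0.04) and Col11a2 (0.83) were within 2-fold. In the cartilage list as a whole, 2 of 13 were higher and 4 lower, with Sox9 at -0.12 and Acan at -1.37 (-0.60 with normexp), and Matn1 was not well above background in either tissue. The direction of Col13a1 depended on the probe, -1.02 by the brightest and 1.83 by the median over probes, and that of the procollagen protease gene Adamts2 likewise, 1.99 and -0.48. The bone sialoprotein gene Ibsp was at least 3.87 higher and Spp1 at least 2.86 higher, while Runx2 was not well above background and Sp7 differed by -0.35. These were the 2 higher of 6 bone genes compared, and the median of 0.34 was -0.48 with only genes well above background in both tissues. Metalloproteases and their inhibitors were higher in 3 of 16 (18.8%, against 12.6% over all genes) and lower in 2 (12.5%, against 6.01%).

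**Figure D4:**
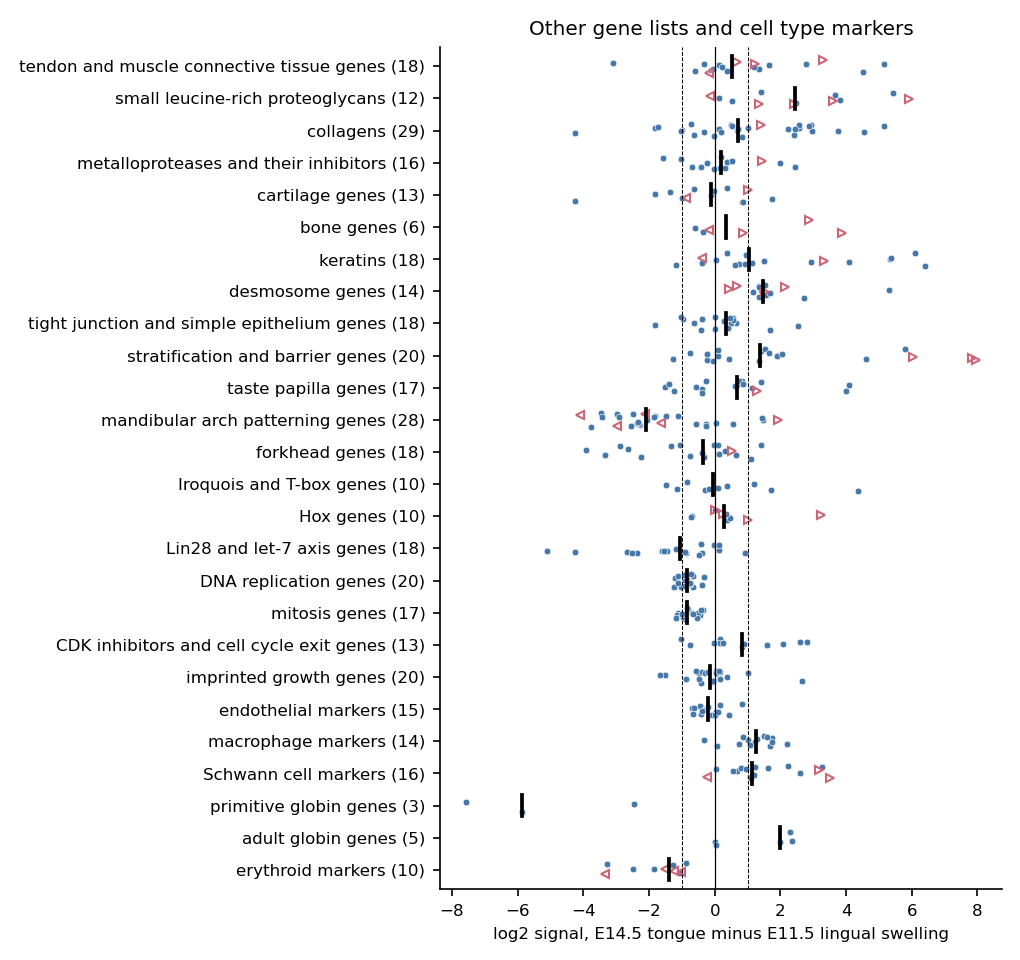
Difference of each gene (horizontal axis, log2 level in T minus LLS) in the connective tissue, epithelial, patterning, growth and cell type lists, drawn as in the plot of the muscle lists. Mandibular arch patterning genes centre at -2.09, DNA replication and mitosis genes at -0.85 and -0.84 with every point below 0, and endothelial markers at -0.20.

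Many genes of stratified epithelium were higher. Keratins were higher in 9 of 18 and lower in 1. The basal-layer pair Krt5 and Krt14 went from levels of 4.31 and 4.32 to 175 and 177 (40.5-fold and 41.0-fold), Krt6a was 83.9-fold higher, Krt17 68.7-fold and Krt13, a keratin of non-keratinizing oral epithelium, 17.2-fold. Of the simple-epithelium keratins, Krt19 was 2.18-fold higher (2.48 to 5.41), while Krt7 (0.75), Krt8 (-0.39) and Krt18 (0.60) were within 2-fold. Desmosome genes were higher in 12 of 14 and lower in 0, with a median of 1.47, led by Pkp1 (39.7-fold). Tight junction and simple epithelium genes were higher in 2 of 18 (11.1%, near the 12.6% over all genes) and lower in 2, with Cdh1 at 0.55 and Epcam at 0.51. Claudins Cldn6 (-1.81) and Cldn7 (-1.03) were the lower members, the latter under 2-fold in several alternatives.

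Of 20 stratification and barrier genes, 11 were higher and 1 lower, and the median of 1.38 was 0.44 with only genes well above background in both tissues. Early differentiation genes rose from below background: S100a14 was at least 251-fold higher, Krtdap at least 230-fold and Ly6d at least 66.4-fold, and the galectin gene Lgals7 was 55.0-fold higher. The cornified envelope genes Ivl, Sprr1a and Sprr3 were not well above background in either tissue, and Tgm1, the cross-linking enzyme gene, differed by 0.09. Grhl3, an epidermal transcription factor gene, was the lower member (-1.26). Trp63, the master regulator gene of stratified epithelium, was at -0.25 by its brightest probe and between 0.95 and 1.51 by others. In the taste papilla list, 5 of 17 were higher and 3 lower. Wnt10a, a ligand gene of papilla placodes, went from 0.629 to 9.99 (15.9-fold), and Foxa2 was 2.68-fold higher, while Shh, the placode signal, went from 4.99 to 1.76 (2.84-fold lower) and its receptor and target gene Ptch1 was at -1.38. Lgr6 was 17.1-fold higher, although another probe differed by 0.71.

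Genes that pattern the mandibular arch were lower in 20 of 28 and higher in 3, with a median of -2.09. Alx1 had the lowest difference in the list. Other lower mesenchymal homeobox genes were Alx4, from 9.64 to 0.702 (13.7-fold), Gsc, from 8.47 to 0.779 (10.9-fold), and Dlx2, from 2.33 to 0.308 (7.58-fold). Msx1 was 4.99-fold lower, and Hand1, which is not a homeobox gene, went from 1.03 to 0.131 (7.86-fold lower). Several members with an oral epithelial domain were within 2-fold, with Pitx1 at -0.25, Dlx3 at 0.04 and Tfap2a at 0.56. Among forkhead genes, 7 of 18 were lower and 2 higher. Foxc2 (-3.90) and Foxd2 (10.1-fold lower) were the lowest, and Foxe1 was lower too (-1.35). The higher members were Foxa2 and Foxd3 (1.09, and as small as 0.48 over the alternatives). Foxc1 (0.14) and Foxa1 (0.65) were within 2-fold. Tbx15 was the largest increase among patterning genes, from 0.0680 to 1.39 (20.5-fold). Tbx22 was 1.20 higher by its brightest probe and -2.14 by the median over its probes. Of 23 Hox genes 10 could be compared, 2 were higher (20%, against 12.6% over all genes), and the largest was Hoxd8 (at least 3.23).

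Most signalling lists held members in both directions. No pathway list had a median beyond 2-fold, with values from -0.87 for retinoic acid to 0.56 for neurotrophic factors. In the retinoic acid list, 3 of 13 were higher and 6 lower, and related enzymes differed in opposite directions: the synthesis gene Aldh1a2 was 7.37-fold lower (5.67 to 0.769) and Aldh1a3 28.7-fold higher (0.0674 to 1.94), while the degrading enzyme gene Cyp26a1 was 9.13-fold higher and Cyp26b1 lower (-1.20). Of 23 FGF genes 8 were higher and 3 lower, including the muscle ligand gene Fgf6 (5.74-fold higher), Fgf7 (6.99-fold higher) and Fgf10, both mesenchymal ligands of the same receptor form, the latter 4.92-fold lower, although its other probe differed by -0.36. In the BMP and TGF-beta list 10 of 32 were higher and 7 lower. Gdf10 went from 0.0630 to 1.01, Mstn, the muscle growth inhibitor, was 9.12-fold higher, and the BMP feedback genes Bambi (-1.49) and Smad6 (-1.63) were lower with Bmp4 (-1.25). Secreted Wnt antagonists differed in both directions, Sfrp5 at least 13.5-fold and Sfrp4 at least 10.6-fold higher and Frzb 8.38-fold lower, and 9 of 32 Wnt genes were higher and 5 lower. Hedgehog genes were higher in 3 of 14 (21.4%, against 12.6% over all genes) and lower in 2 (14.3%, against 6.01%). In the Notch list 5 of 19 were higher and 0 lower, Heyl the most (2.14, and 0.78 by the median over its probes). The insulin-like growth factor genes Igf1 (0.73) and Igf2 (0.05) were within 2-fold, but the binding protein genes Igfbp6 (24.3-fold) and Igfbp7 (14.1-fold) were higher. Among migration signals, the ligand gene Hgf was 3.26-fold lower and its receptor gene Met 2.76-fold higher, and Cxcl12 was 6.44-fold lower by its brightest probe but differed by -0.29 by another, with its receptor gene Cxcr4 at -0.05. Neurotrophin genes were lower on the ligand side, Ntf3 by 4.30-fold, and higher on the receptor side, Ntrk3 by at least 37.5-fold and Ret by at least 8.12-fold.

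**Figure D5:**
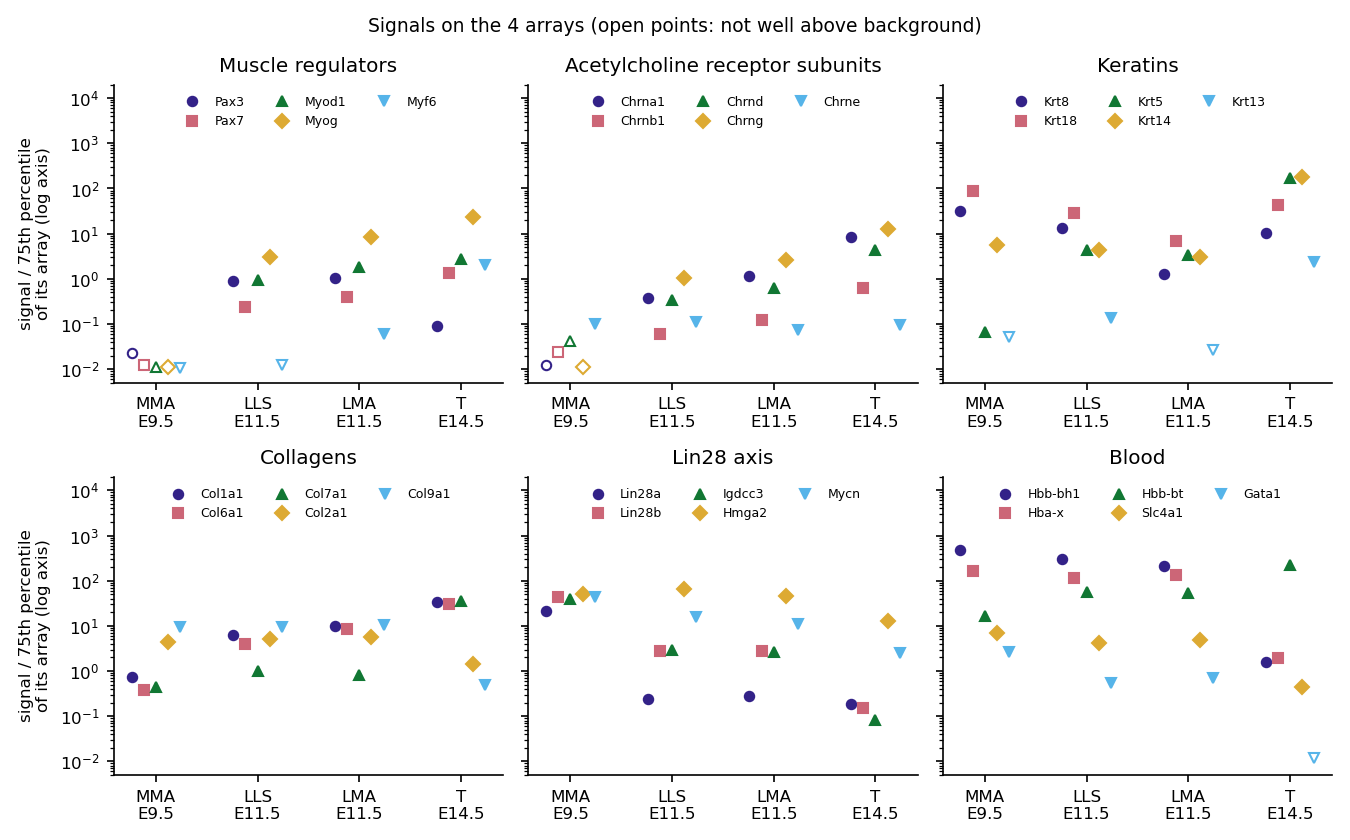
Levels of 30 genes on the 4 arrays (log axis), tissues and stages on the horizontal axis, filled points well above background and open points not. In T, Pax3 is lower and the other muscle regulators higher than in LLS, Chrne stays near 0.1, Krt5 and Krt14 exceed 170, and both Hbb-bh1 and Hba-x are near 2.

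In the Lin28 and let-7 list, named for an RNA-binding protein and the microRNA it blocks in early embryos, 9 of 18 were lower and 0 higher, with a median of -1.05. Igdcc3 went from 2.93 to 0.0846 (34.7-fold lower), Lin28b from 2.83 to 0.149 (18.9-fold by its brightest probe, and 0 on the log2 scale by the median over its probes), Mycn from 15.8 to 2.49 (6.32-fold) and Hmga2 from 65.8 to 12.7 (5.18-fold). Lin28a itself was already low in LLS (0.246, against 21.3 in MMA) and differed by -0.39. By their brightest probes, all 20 DNA replication genes and all 17 mitosis genes were below 0, by -0.33 to -1.24 and -0.36 to -1.17. Of these, 5 and 4 passed 2-fold, and 2 to 5 and 0 to 4 did so over the alternatives. The sign of 1 of them, Chaf1b, turned in 1 alternative, to 0.02. The helicase gene Mcm7 was 2.36-fold lower, the mitotic kinase genes Plk1 and Aurka 2.25-fold and 2.22-fold (as small as -0.97 and -0.95 on the log2 scale over the alternatives), and Mki67 1.33-fold. Cell cycle exit genes were higher in 5 of 13 and lower in 1: the CDK inhibitor gene Cdkn1a was 7.04-fold higher, the retinoblastoma gene Rb1 4.24-fold and Gadd45b 5.99-fold. Cdkn1c was high in both tissues (345 and 382). Of 20 imprinted growth genes 2 were higher (10%) and 2 lower (10%), near the 12.6% and 6.01% over all genes. H19 was at 0.03, Igf2 at 0.05 and Dlk1 at -0.09.

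The CCAAT box, the site of the NF-Y factor, was in 12 of the 13 upstream windows of mitosis genes on either strand (92.3%), in 12 of 21 windows of replication genes (57.1%) and in 33.8% of all windows. The E2F motifs TTTCCCGC or TTTGGCGC were in 4 of the 21 replication windows and 1.30% of all. Among the genes lower in T as a whole the CCAAT share was 39.0%, against 28.8% among those higher and 35.3% within 2-fold. The windows of Plk1 (chr7:122159185-122159434, plus strand) and Aurka (chr2:172370571-172370820, minus strand) show the boxes, in capitals, close to the start (GRCm38.p6, RefSeq).
Plk1: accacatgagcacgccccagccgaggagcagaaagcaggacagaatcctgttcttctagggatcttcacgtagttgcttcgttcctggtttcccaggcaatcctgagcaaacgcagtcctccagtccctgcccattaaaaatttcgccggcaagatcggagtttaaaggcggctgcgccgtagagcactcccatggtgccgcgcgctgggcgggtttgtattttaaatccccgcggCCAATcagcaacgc
Aurka: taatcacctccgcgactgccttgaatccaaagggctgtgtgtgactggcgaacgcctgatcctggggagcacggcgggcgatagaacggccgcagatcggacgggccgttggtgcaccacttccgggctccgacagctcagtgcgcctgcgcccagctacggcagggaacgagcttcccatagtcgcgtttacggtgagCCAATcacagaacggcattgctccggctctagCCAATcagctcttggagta
The box nearest the start began 14 bases before it in Plk1 and 19 bases before it in Aurka, which had a further box 51 bases before it.

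Red cells of the embryo come first from the yolk sac and later from the fetal liver, and they use different globin genes. The embryonic globin genes Hbb-bh1 (305 to 1.59, 192-fold), Hba-x (114 to 1.96, 58.0-fold) and Hbb-y (486 to 87.8, 5.53-fold) were lower. The adult beta-globin probes were higher, Hbb-bt from 57.6 to 226 (3.93-fold), and the alpha-globin gene Hba-a1 was at 407 and 406. Globin copies are near-identical, so the share of each copy in these signals is uncertain. Among erythroid markers 9 of 10 were lower and 0 higher, including the erythroid regulator gene Gata1 (0.546 in LLS and not well above background in T) and the membrane anion exchanger gene Slc4a1 (9.76-fold).

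Other cell types were represented unequally. Endothelial markers were higher in 0 of 15 and lower in 0 of 15, with Cdh5 at -0.09 and Pecam1 at 0.03. Of lymphatic markers 2 of 4 compared were higher and 0 lower, the higher being Lyve1 (at least 7.80-fold) and Ccl21a (3.55). Prox1 (0.69) and Pdpn (0.81) were within 2-fold, and Flt4 was not well above background in either tissue. Macrophage markers were higher in 10 of 14 and lower in 0 (median 1.26), such as Lyz2 (2.19), Mrc1 (1.73) and Adgre1 (1.69, and 0.97 by the median over its probes). Schwann cell markers were higher in 10 of 16 and lower in 0 (median 1.14), including Fabp7 (9.61-fold) and S100b (at least 11.3-fold), while the lineage regulator gene Sox10 differed by 0.68. Of neuron markers 6 of 16 were higher and 3 lower, with the peripheral neuron filament gene Prph at least 28.8-fold higher and Isl1 lower (-1.56). Pericyte and smooth muscle markers were higher in 6 of 10 and lower in 2. Mast cell markers were higher in 3 of 5 compared, all bounds, Hdc the most (at least 3.06), and Mcpt4 and Fcer1a were not well above background. Adipocyte markers were higher in 2 of 3 compared and lower in 0. Fabp4, a gene of fat and capillary cells, was at least 74.9-fold higher, and Pparg was higher by 1.68 (as small as 0.89 over the alternatives). Cebpa (0.95) was within 2-fold, and the adipocyte genes Adipoq and Plin1 were not well above background. The extraction text of the labels names the cerebellum of individual animals, not pooled oral tissue. Of 12 cerebellum markers 8 were not well above background in T or LLS, Atoh1, En1 and Neurod1 among them. Of the 4 compared, Pcp2 was 14.6-fold lower in T and Cbln1 was at -1.60 (as small as -0.87 over the alternatives). Zic1 (0.86) and Barhl1 (0.26) were within 2-fold. Salivary gland markers were compared for 3 genes, with Cldn10 higher (1.78). Thyroid and pharyngeal endoderm markers were higher in 3 of 5 and lower in 1. The higher members included the thyroglobulin gene Tg (1.35, and as small as 0.45 over the alternatives), while the thyroid genes Nkx2-1, Pax8 and Tshr were not well above background. Cardiac markers were higher in 2 of 5, with Nkx2-5 at 1.54 and 4.63 and Gata4 and Tbx5 not well above background. Melanocyte markers were higher in 0 of 5 and lower in 0. Whether these cells or their RNA contributed to the other differences was not tested.

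Immediate early and heat shock genes, which respond within minutes to cell stress, were higher in 12 of 21 and lower in 0, with a median of 1.24. Egr1 went from 0.183 to 1.15 and Hspa1b from 0.297 to 1.39, and Klf4, also an epithelial differentiation factor, was 8.64-fold higher. Their part in the other differences was not tested. Interferon genes were higher in 3 of 11 and lower in 1, and the 12 reference genes were all within 2-fold, from -0.89 to 0.91.

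Outside the lists, the most increased genes measured in both tissues included further muscle genes. Tceal7 was 183-fold higher (0.582 to 106.7), the muscle integrin-binding chaperone gene Itgb1bp2 127-fold, the muscle kinase gene Srpk3 117-fold, and the small heat shock genes Hspb3 and Hspb2 105-fold and 37.2-fold. The others were Dhrs7c (99.5-fold), the stress-responsive repeat gene Ankrd1 (72.2-fold), Eva1c (59.3-fold), Mustn1 (54.1-fold), the RNA-editing family gene Apobec2 (47.4-fold), the transcription factor gene Sim2 (44.7-fold), the lectin gene Chodl (43.4-fold), Nell1 (41.3-fold), Plac9a (35.9-fold) and Sh3bgr (35.5-fold). Another probe of Nell1 differed by 0.50, and other probes of Eva1c by 0.99 to 6.53 and of Sim2 by 0.85 to 5.40. The largest bounds were for Arhgap36 (at least 199.5-fold), the epidermal secreted protein gene Dmkn (at least 146-fold), Atp1b4 (at least 144-fold), Cyp2f2 (at least 99.3-fold) and Chil1 (at least 78.2-fold). On the lower side, the calcium-binding matrix gene Smoc1 went from 3.49 to 0.196 (17.8-fold), the carbonic anhydrase gene Car14 from 6.49 to 0.371 (17.5-fold), the phosphatase gene Dusp9 from 2.64 to 0.188 (14.1-fold) and the laminin gene Lama1 from 13.2 to 1.14. Rhd, of the red cell Rhesus complex (12.1-fold), Cyp1b1 (11.6-fold), the nuclear receptor gene Nr5a2 (2.68 to 0.251), Cited1 (10.6-fold), Paqr6 (10.5-fold), Fendrr (10.5-fold), the platelet chemokine gene Ppbp (10.3-fold), Tac2 (8.29-fold), Sh2d5 (7.88-fold), Foxd2os (7.32-fold) and Fsd1 (7.02-fold) followed. Another probe of Paqr6 differed by 0.34. Bounds on this side were Nr1h5 (at least 44.2-fold, another probe -0.23), Mogat2 (28.6-fold), Cited4 (15.8-fold), and the red cell genes Kel (15.3-fold) and Nfe2 (15.2-fold).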

How the data were processed

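Tongue and lingual swelling RNA was hybridised in 1 colour (Cy3) to 1 array each, and all 4 arrays of the series were printed on 1 slide. The deposited intensity values are Feature Extraction processed signals, background-subtracted and detrended by the authors' scanner software (10.7.1.1 per the file headers, 9.5.1.1 in the submitters' processing notes) and not scaled between arrays. Here each array was divided by its 75th percentile over the 56601 usable probes and compared as log2 differences of the deposited signals. A signal not well above background was raised to the lowest signal that was, so a difference from it is a bound under this processing. Of the probes, 45821 had a gene name, from RefSeq accessions and symbols or, for 1985, the file's own symbol, and the brightest probe stood for each of 26722 genes. No spot was saturated.

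Genes were counted at 2-fold, without a test. Members and lists were chosen with earlier results of these data known. Named genes are list or isoform-pair members and, outside the lists, the 15 highest, 15 lowest and 5 largest bounds each way, without clone names. Alternatives changed the scaling, background correction (normexp, limma 3.58.1), filter, probe choice, fold and source of values (the authors' deposited value table, of unstated normalization). The comparison was tested on simulated data. Promoter windows of 250 bases came from RefSeq (GRCm38.p6). Proteins and a genome were not used here. Some list members are not reported here.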

Additional observations from a re-analysis of the deposited data

How the results depend on the processing

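No paired analysis was possible because each tissue had 1 array. Normexp background correction gave 1458 genes higher and 563 lower, no filter or floor gave 3441 and 1989, and a 4-fold threshold gave 952 and 187. The other alternatives kept both counts within 1.5 times those reported. With the median over a gene's probes, 6 called genes changed sign, to -0.48 for Adamts2, 1.83 for Col13a1, -0.10 for Pfkp, -0.34 for Ryr1, -2.14 for Tbx22 and -0.68 for Tpm1, where probes of 1 gene differed. No other called gene of the lists or named outside them did so under any alternative tried. Quantile, cyclic loess and median scaling and the deposited value table moved 0 of 61 list medians by over 1.5-fold. Normexp moved 11, no filter 7, and each of the other 2 alternatives 5. Among small lists, the erythroid median became -2.27 without filter, and those of mast cells 0.15 and lymphatics 0.81 with only genes well above background in both tissues. Signals near background limit the 669 and 184 bounds. With 1 array per tissue, variation between litters, pools or dissections was not measured.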
